A study of Mus musculus with 16 samples.

Results

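The 10 regulators of mitochondrial biogenesis described here are Ppargc1a, Ppargc1b, Pprc1, Nrf1, Gabpa, Esrra, Tfam, Tfb1m, Tfb2m and Polrmt. They were chosen by name, as every non-control probe whose annotated gene is one of the 10, and they account for 16 of the 55681 probe names on the array. Testing required that all arrays of some group read the probe as well above background. Of the 16 probes 12 met that filter, with at least 1 probe for each of the 10 genes. RNA came from gastrocnemius, a mixed-fibre muscle of the hind limb, of untreated male C57BL6 littermates aged 8 to 16 weeks. Of these, 3 were wild type (WT, Eif6+/+) and 3 were heterozygous (Het, Eif6+/-), with 1 of the 2 copies of Eif6 lost in all cells and not only in muscle fibres. Eif6 encodes a translation initiation factor that binds the large ribosomal subunit and keeps it apart from the small one. Each mouse gave whole-muscle RNA and polysome RNA, the latter from sucrose gradient fractions in which several ribosomes sit on a message, and monosome RNA, from single ribosomes, was hybridised for 2 mice of each genotype. The 16 single-colour arrays therefore make 6 groups, and the main question was whether the loss of 1 copy changed which messages were loaded on polysomes.

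Mitochondrial biogenesis is controlled from the nucleus in layers. The coactivators PGC-1alpha (Ppargc1a), PGC-1beta (Ppargc1b) and PRC (Pprc1) bind no DNA themselves and work through DNA-binding factors such as NRF-1 (Nrf1), the alpha subunit of GABP or NRF-2 (Gabpa) and ERR-alpha (Esrra). These factors act on nuclear genes of the respiratory chain and on the genes for the mitochondrial transcription machinery, in which Tfam packages and bends mitochondrial DNA, Polrmt is the RNA polymerase, Tfb2m is its initiation partner, and Tfb1m methylates mitochondrial ribosomal RNA. In skeletal muscle this programme is known for its response to endurance exercise.

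The arrays differed in brightness, and 2 of them stood apart. The 75th percentile of the processed signal was 42.3 to 150 on WT and 13.5 to 33 on Het whole-muscle arrays, and 24.1 to 66.1 on WT and 63.1 to 106 on Het polysome arrays. Over 219 pairs of probes at least 500 bases apart on 1 transcript, the median of the 5′ probe minus the 3′ probe was -1.62 to -1.13 on 14 arrays, -0.12 on WT polysome 2 and 0.34 on WT monosome 2, both from the same mouse. Where leaving out that mouse changed a call between genotypes, the value or count without it is given too. All 10 skeletal muscle fibre markers were well above background on all arrays, whereas the kidney and liver markers Umod and Alb were on none. Eif6 itself was 9.26 to 9.95 in WT and 8.51 to 8.70 in Het whole muscle on the log2 scale, and 10.24 to 11 against 9.17 to 9.41 in polysome RNA, with no overlap of the genotypes in either.

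The sequences that bear on the results are shown here. Gabpa and Tfam each had a pair of tested probes, whose readings are compared below, and Pprc1 had 1; the first 30 bases of each probe follow in lower case, with the base of the transcript at which the probe lies given after the name. On mouse build mm9 the Gabpa probes lie at chr16:84860691-84860750 and chr16:84863822-84863881, the Tfam probes at chr10:70691260-70691319 and chr10:70691103-70691162, and the Pprc1 probe at chr19:46147311-46147370.
Gabpa base 1653: tgaagactcttattggatacagtgcagcag
Gabpa base 4784: aagggaggagaatttttgcatacattttta
Tfam base 823: ctctgagcattaagatggaagacggagttg
Tfam base 980: ctttgagccttgacagaagatgatgctgag
Pprc1 base 5155: ggtttttaataacaggtgttgaacaaatta
The Gabpa probe nearer the 3′ end has a GC content of 26.7%, against 45% for the other, so the sensitivity of the pair need not be equal.

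Because Nrf1, Gabpa and Esrra encode DNA-binding factors, the promoters of the members were searched on both strands for 3 motifs that these factors are known to bind. RefSeq promoters of assembly GRCm38.p6, from 250 bases before to 50 bases after the start, were listed for 9 of the 10 members. The NRF-1 motif GCGCANGCG was found in 3 of these 9 genes and in 6.25% of 32851 promoters, the GABP motif CCGGAAG in 3 genes and 8.86% of promoters, and the ERR motif TCAAGGTCA in 0 genes and 0.423% of promoters. In the stretches below, given 5′ to 3′ on the strand of the gene, capitals mark the motif, and the Polrmt stretch holds 2 occurrences of the NRF-1 motif that share 3 bases. The stretches lie, in order, at chr16:84835020-84835049, chr10:79746606-79746635, chr10:71238073-71238102, chr19:6921930-6921959, chr10:79746564-79746593 and chr1:179546245-179546274.
Gabpa, GABP motif: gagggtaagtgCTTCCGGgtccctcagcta
Polrmt, GABP motif: ccctaagagcgCTTCCGGcagtcgcagaac
Tfam, GABP motif: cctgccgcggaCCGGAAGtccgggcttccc
Esrra, NRF-1 motif: acaggaggccGCGCACGCGtgtgtatcgac
Polrmt, NRF-1 motif: caggcggCGCGTGCGCGTGCGCactgcggg
Tfb2m, NRF-1 motif: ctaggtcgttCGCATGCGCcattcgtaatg
Polrmt was the member with both motifs. A match of these letters is a description of the promoter, and no binding was measured.

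Of the 10 regulators, Pprc1 differed between genotypes in whole muscle and Gabpa in polysome RNA at an unadjusted p under 0.05 with a log2 difference over 1 in size. The study gives that threshold for its polysome analysis and used a false discovery rate for whole muscle, and it is applied here to all comparisons between genotypes. That is 1 of 10 members in whole muscle, where 5.05% of 15593 genes passed, and 1 of 10 in polysome RNA, where 5.47% passed. The loading of each message was taken as the polysome minus whole-muscle log2 value within a mouse, and its difference between genotypes passed for 2 of 10 members, Gabpa upward and Pprc1 downward, where 13.6% of all genes passed. No member had a limma adjusted p under 0.05 in these 3 comparisons, in which 2, 0 and 0 of all genes did. The values of the genotypes did not overlap for 1 member in whole muscle, where this held for 12.6% of all genes, for 4 in polysome RNA, against 22.1%, and for 4 in loading, against 25.6%. The median difference over the members was 0.10, 0.20 and 0.23 in whole muscle, polysome RNA and loading, beside -0.01, 0.04 and 0.14 over all genes. With 3 mice against 3, a 2-sided exact permutation test cannot give a p below 0.1, and in bulk RNA fewer cells of a type and less RNA per cell cannot be told apart.

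**Figure D1:**
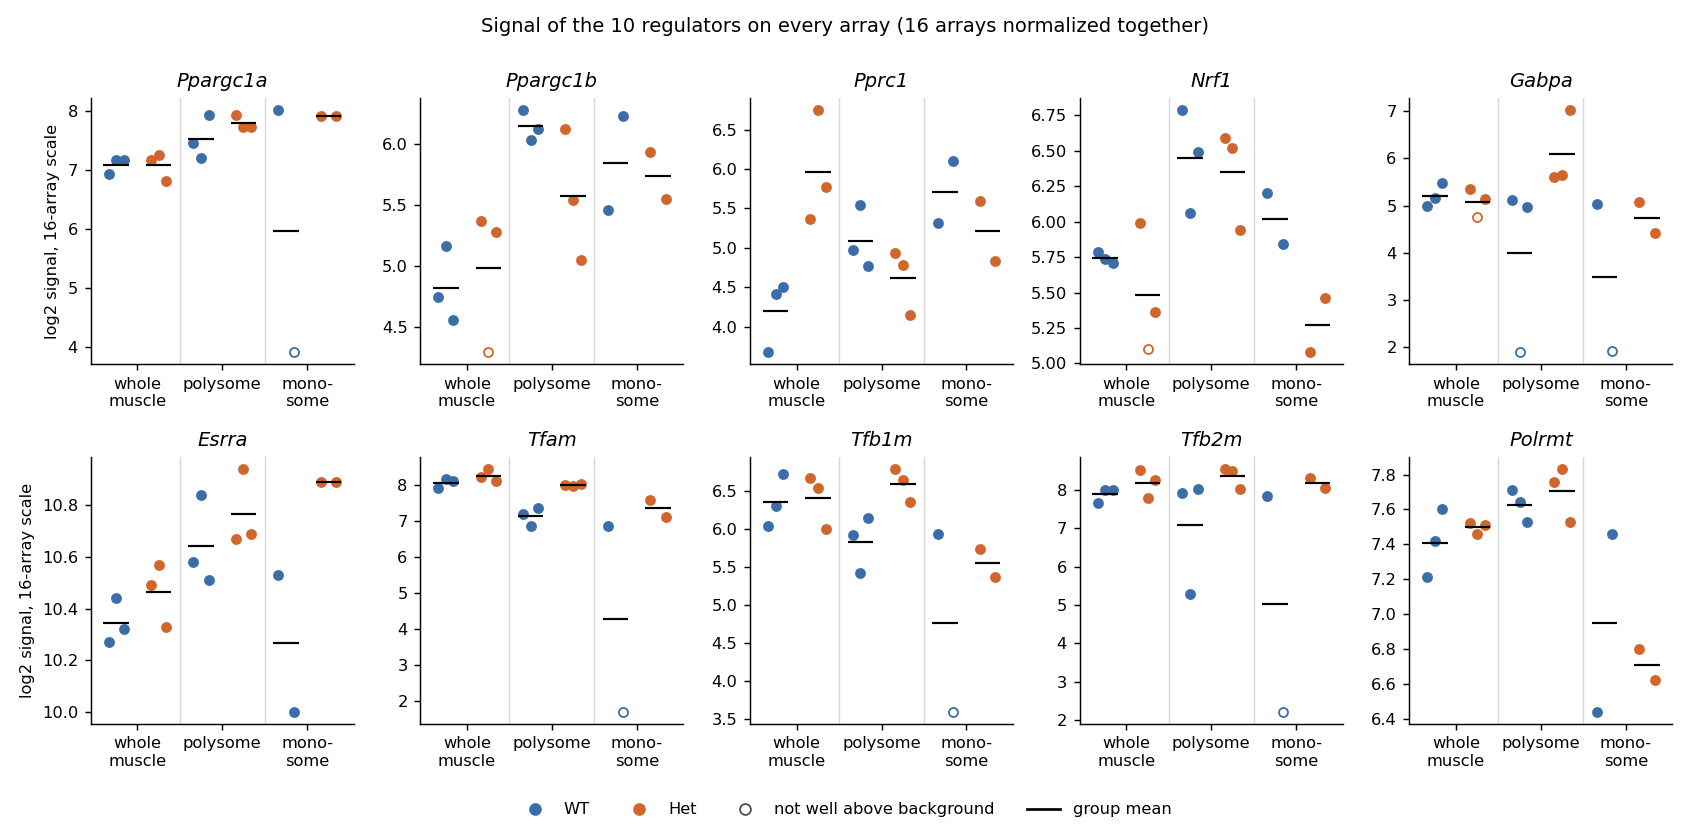
Log2 signal of each of the 10 regulators (vertical axis, 16 arrays normalized together) on every array, by group of genotype and RNA kind (horizontal axis). Each circle is 1 array and an open circle was not well above background, lines are group means, and whole-muscle and polysome values sit slightly below the 12-array values in the text; Pprc1 separates by genotype in whole muscle, and Gabpa, Tfam, Tfb1m and Tfb2m in polysome RNA.

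Among the coactivators, Pprc1 was the one that differed between genotypes, with a higher level in Het whole muscle and a lower polysome over whole-muscle ratio. Pprc1 in whole muscle read 3.87, 4.62 and 4.74 in WT and 5.62, 7.03 and 6.03 in Het. Every Het muscle was above every WT muscle, and the probe was well above background on all 16 arrays. The mean was 4.41 ± 0.47 (SD, n = 3) in WT and 6.23 ± 0.73 in Het, so Pprc1 rose by 1.82 (SE 0.40), or 3.52-fold (limma unadjusted p = 0.000835, adjusted p = 0.262, exact permutation p = 0.1). In polysome RNA the same probe read 5.21, 5.79 and 5.0 in WT and 5.17, 5.01 and 4.36 in Het. There the genotypes overlapped, with a difference of -0.49 (SE 0.40, limma adjusted p = 0.534).

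The loading of Pprc1 on polysomes went from above 0 to below 0. The polysome over whole-muscle log2 ratio was 1.34, 1.17 and 0.27 in the WT mice and -0.45, -2.02 and -1.67 in the Het mice. All 3 WT ratios were above 0 and all 3 Het ratios below it. Loading fell by 2.30 on the log2 scale (SE 0.51, limma unadjusted p = 0.00254, adjusted p = 0.11, exact permutation p = 0.1), which is a 4.93-fold change. The ratio holds the whole-muscle value, which differed by 1.82, while polysome RNA differed by -0.49 and overlapped. The whole-muscle and loading calls are therefore not separate results. Het whole-muscle arrays were dimmer than WT ones, and with array brightness as a term the whole-muscle difference was 0.86 and the loading difference -0.71, neither past the threshold. On slide 1 and slide 2 alone the loading difference was -2.13 and -1.68. Each slide holds 1 or 2 arrays of a group, and no mouse has its whole-muscle and polysome arrays on the same slide. Loading on a single slide therefore compares groups rather than mice, and every ratio within a mouse crosses slides. With normexp background correction and in the authors' value table the whole-muscle difference was 0.73 and 0.76 and the loading difference -0.88 and -0.95, all under the threshold. The whole-muscle difference was 1.80 and 1.37 on each slide alone and 1.41 to 2.12 without any 1 mouse.

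Ppargc1a, the coactivator best known in endurance training, showed no difference between genotypes that passed in whole muscle, polysome RNA or loading. In whole muscle it read 7.21, 7.46 and 7.46 in WT and 7.45, 7.55 and 7.11 in Het, a difference of -0.01 (SE 0.23). In polysome RNA it read 7.74, 7.50 and 8.23 in WT and 8.24, 8.02 and 8.01 in Het, a difference of 0.27 (SE 0.23, limma adjusted p = 0.552). The ranges overlapped in both, as did the ratios of the mice, at 0.04 to 0.76 in WT and 0.47 to 0.90 in Het. The other Ppargc1a probe was well above background on 5 of 16 arrays and was not tested.

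Ppargc1b, the close relative of Ppargc1a, read higher in polysome than in whole-muscle RNA in every WT mouse. In whole muscle it read 4.97, 5.40 and 4.78 in WT and 5.62, 4.51 and 5.53 in Het, with the reading of 4.51 not well above background. In polysome RNA it read 6.55, 6.30 and 6.39 in WT and 6.39, 5.79 and 5.29 in Het. The Het values reached lower, but the difference of -0.59 (SE 0.35, limma adjusted p = 0.422) did not pass, nor did that of -0.76 in loading (SE 0.46, limma adjusted p = 0.436).

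Among the DNA-binding factors, Gabpa was higher in Het polysome RNA, and its 2 probes did not read alike. The probe at base 4784, the brighter of the pair and therefore the one that stands for the gene, read 5.35, 1.98 and 5.21 in WT polysome RNA and 5.86, 5.90 and 7.32 in Het. Each Het value was above each WT value, and the reading of 1.98 was not well above background. Gabpa rose by 2.18 (SE 0.76, limma unadjusted p = 0.0149, adjusted p = 0.27, exact permutation p = 0.1), and no fold is given because 1 WT reading was at background. The low reading is that of WT polysome 2, 1 of the arrays that stood apart. Without that mouse the difference was 1.08 and still passed, without Het mouse 3 it was 1.70 and did not, and on slide 1 and slide 2 alone it was 2.19 and 1.40. With normexp correction it was 0.75 and with a brightness term 1.70, and it passed with neither, nor by the methods' t-test.

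In whole muscle the same Gabpa probe read 5.22, 5.41 and 5.74 in WT and 5.61, 4.99 and 5.38 in Het, with the reading of 4.99 not well above background. These overlapped, with a difference of -0.13 (SE 0.76). The loading ratio was 0.13, -3.43 and -0.52 in WT and 0.24, 0.91 and 1.94 in Het, so that every Het ratio was above every WT ratio. Gabpa loading rose by 2.30 (SE 0.93, limma unadjusted p = 0.0425, adjusted p = 0.282). Without WT mouse 2 the difference was 1.23 and did not pass, with a brightness term it was 1.46, and the call was lost in 13 of 17 alternatives, among them the fit that leaves out the pairing by mouse.

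The Gabpa probe at base 1653 gave another picture. In whole muscle it read 4.57, 4.36 and 4.30 in WT and 2.58, 1.63 and 1.62 in Het, where no array was well above background. The fitted difference of -2.46 (limma unadjusted p = 0.000113, adjusted p = 0.169) therefore sets no lower limit on the size of a fall, no fold is given, and with normexp correction it was -0.43. In polysome RNA it read 2.64, 4.32 and 3.79 in WT, with only the last well above background, and 3.94, 4.66 and 4.74 in Het, a difference of 0.86 (SE 0.42, limma adjusted p = 0.354). It was 1.23 without WT mouse 2 and passed the threshold, but that value rests in part on the WT reading of 2.64, which was at background. In polysome RNA the estimates of both probes were above 0, and in whole muscle they cannot be compared, since the Het readings at base 1653 were at background. The base 1653 probe minus the base 4784 probe was -3.56 to -0.64 on 14 arrays, and 2.21 and 1.66 on the polysome and monosome arrays of WT mouse 2. On those polysome and monosome arrays neither probe was well above background. The value of -3.56 is from a Het whole-muscle array, where base 1653 was at background, so no conclusion is drawn from these differences.

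**Figure D2:**
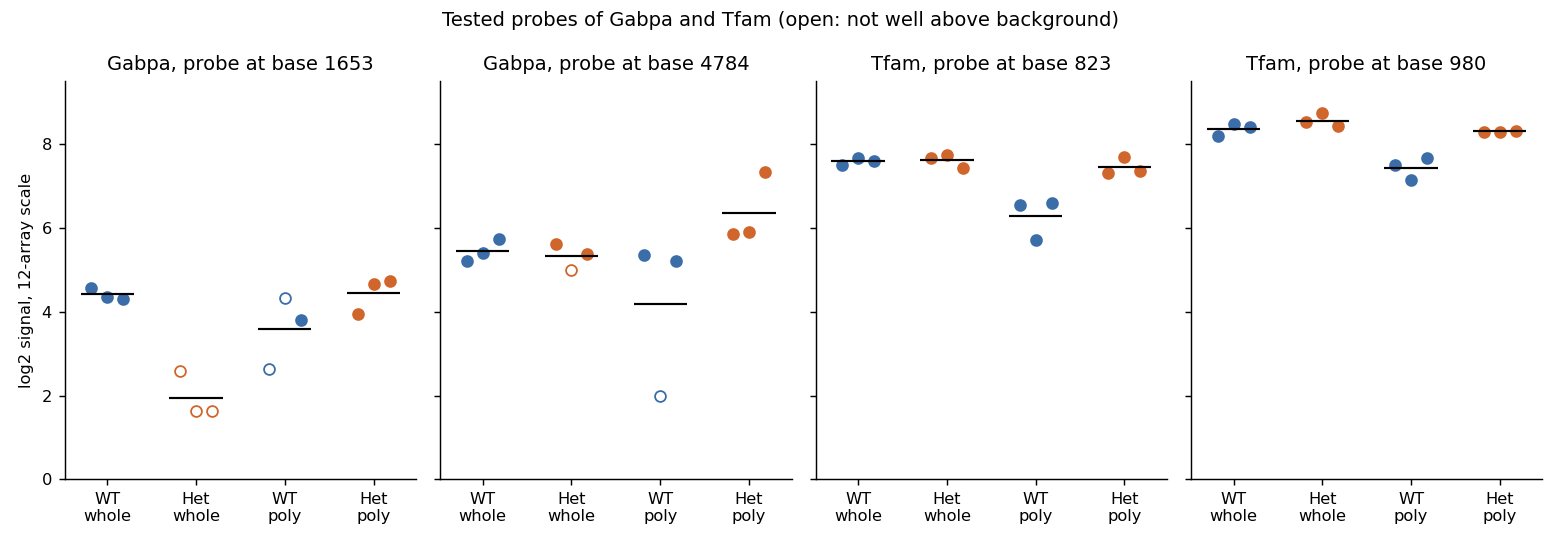
Log2 signal (vertical axis) of the tested probes of Gabpa and Tfam on each array by group (horizontal axis), with a panel for each probe. Colours mark the genotype, and open circles mark readings not well above background. The Tfam probes move together across groups. The Gabpa probe at base 1653 is at background on every Het whole-muscle array, so the Gabpa probes cannot be compared there.

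Nrf1 and Esrra showed no difference between genotypes that passed in whole muscle, polysome RNA or loading. Nrf1 in whole muscle read 6.05, 6.0 and 5.97 in WT and 6.26, 5.34 and 5.61 in Het, the 5.34 not well above background, a difference of -0.27 (SE 0.29). In polysome RNA it read 7.07, 6.33 and 6.77 in WT and 6.87, 6.80 and 6.21 in Het, a difference of -0.10 (SE 0.29). The WT whole-muscle values were closer together than the Het ones, and the genotypes overlapped in both kinds of RNA. Esrra had the smallest spread of the polysome over whole-muscle ratio among the members in both genotypes, at 0.30 ± 0.10 (SD, n = 3) in WT and 0.30 ± 0.11 in Het. Its difference between genotypes was 0.12 (SE 0.19) in whole muscle and 0.12 (SE 0.19) in polysome RNA.

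Of the genes for mitochondrial transcription, Tfam, Tfb1m and Tfb2m were each higher in all 3 Het polysome samples than in all 3 WT ones, while Polrmt was not. None of the 4 passed this threshold in whole muscle, polysome RNA or loading through the probe that stands for the gene. Tfam at base 980 read 7.49, 7.14 and 7.67 in WT polysome RNA and 8.29, 8.28 and 8.32 in Het. The Het values lay close together and above all WT values. The difference was 0.86 (SE 0.20), or 1.82-fold (limma unadjusted p = 0.00127, adjusted p = 0.203, exact permutation p = 0.1), under the size that the threshold asks for.

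The Tfam probe at base 823 read 6.54, 5.70 and 6.59 in WT polysome RNA and 7.30, 7.69 and 7.36 in Het. It too showed no overlap, and at 1.18 (SE 0.26, limma unadjusted p = 0.000809, adjusted p = 0.193) it passed the threshold. Without WT mouse 2 the differences of the 2 probes were 0.72 and 0.89, and with a brightness term 0.86 and 1.02. In whole muscle the probe at base 980 read 8.20, 8.47 and 8.41 in WT and 8.52, 8.73 and 8.42 in Het, a difference of 0.20 (SE 0.20) with overlapping ranges. The loading ratio of that probe was -0.71, -1.33 and -0.75 in WT and -0.23, -0.45 and -0.10 in Het. All 6 ratios were below 0 and the Het ones were nearer to it, with a difference of 0.67 (SE 0.31, limma unadjusted p = 0.0686, adjusted p = 0.336). At base 823 the loading difference was 1.16 (SE 0.37, limma unadjusted p = 0.0158, adjusted p = 0.195), which passed the threshold, and 0.83 without WT mouse 2 and 0.71 with a brightness term, which did not.

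Tfb1m read 6.20, 5.67 and 6.42 in WT polysome RNA and 7.08, 6.93 and 6.63 in Het, again without overlap. The difference was 0.79 (SE 0.29, limma unadjusted p = 0.0189, adjusted p = 0.275), and 0.57 without WT mouse 2. On slide 1 alone it was 1.15 and on slide 2 alone 0.36. In whole muscle Tfb1m read 6.30, 6.58 and 7.02 in WT and 6.96, 6.83 and 6.28 in Het, which overlapped, and the loading ratio was -0.11, -0.91 and -0.60 in WT and 0.12, 0.10 and 0.35 in Het. The ratios did not overlap, but their difference of 0.73 (SE 0.32, limma unadjusted p = 0.0565, adjusted p = 0.311) did not pass.

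Tfb2m showed how much 1 array can carry. It read 8.22, 5.54 and 8.32 in WT polysome RNA and 8.84, 8.81 and 8.34 in Het. Only the reading of 5.54, from WT polysome 2, was far below the rest. The difference of 1.30 (SE 0.60, limma unadjusted p = 0.0519, adjusted p = 0.333) became 0.39 without that mouse, and in whole muscle it was 0.31 (SE 0.60). Polrmt in polysome RNA read 8.01, 7.94 and 7.82 in WT and 8.06, 8.13 and 7.82 in Het. The groups overlapped, with a difference of 0.08 (SE 0.19), and in whole muscle it was 0.09 (SE 0.19).

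**Figure D3:**
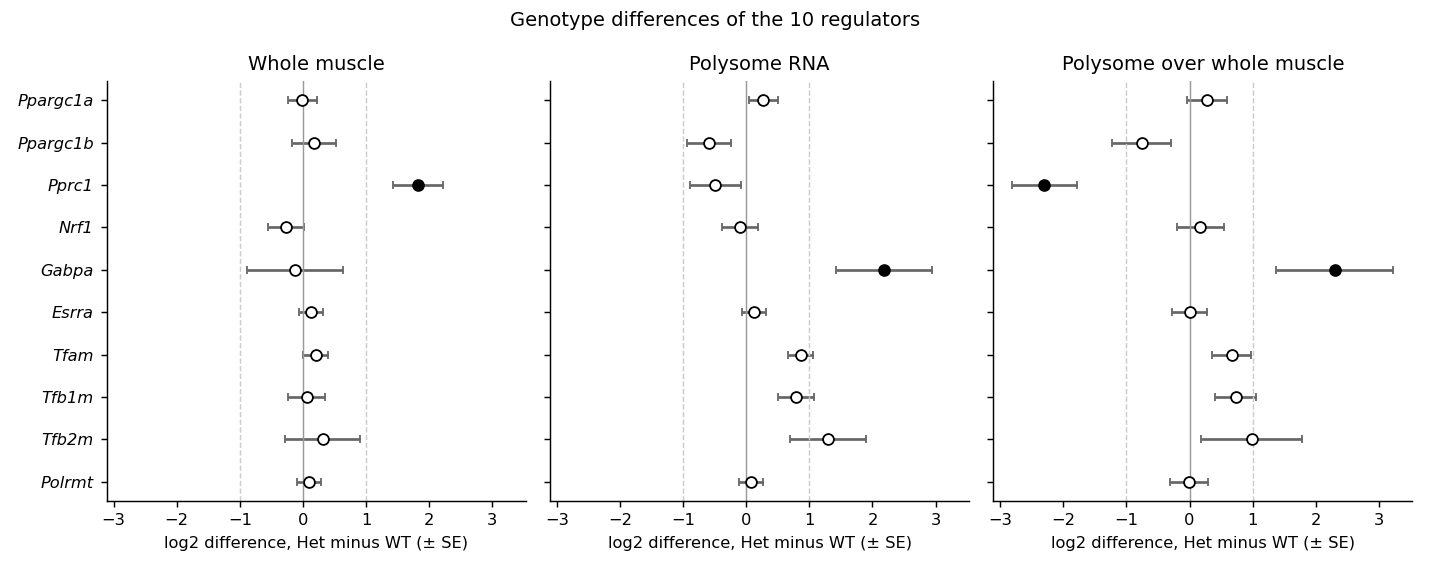
Het minus WT difference in log2 units for each regulator (points, with bars of ± 1 SE from limma) in whole muscle, polysome RNA and loading. Filled points pass the threshold and dashed lines mark a log2 difference of 1 in either direction; Pprc1 lies past the upper line in whole muscle and past the lower one in loading, and Gabpa past the upper line in polysome RNA and loading.

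Blood and fibroblast markers differed between genotypes in polysome RNA, while the sums of adipocyte, macrophage, endothelial and Schwann cell markers overlapped there. In whole muscle the blood sums were 13.82 to 14.44 in WT and 14.16 to 14.32 in Het. The fibroblast sums there were 14.01 to 14.53 in WT and 13.74 to 14.37 in Het, so neither separated the genotypes. In polysome RNA the log2 of the summed blood marker signal was 15.04 to 16.10 in WT and 13.98 to 14.46 in Het, and that of the fibroblast markers was 15.30 to 15.43 in WT and 14.68 to 14.94 in Het. Muscle fibre markers summed to 20.06 to 20.13 in WT and 20.18 to 20.26 in Het polysome RNA, which did not overlap, and to 20.05 to 20.24 and 20.04 to 20.14 in whole muscle, which did. Of the 10 fibre markers, Ckm and Acta1 passed this threshold in loading, higher in Het by 1.71 and 1.12, beside 13.6% of all genes. The blood marker Hba-a1 was well above background on 16 of 16 arrays, and all 4 fibroblast markers were on 15 or 16. Their part in the higher polysome readings of Gabpa, Tfam, Tfb1m and Tfb2m was not tested.

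Apart from genotype, the members differed in where their RNA was found. Averaged over the genotypes, 4 of the 10 had a limma adjusted p under 0.05 between polysome and whole-muscle RNA, where 25.4% of all genes had, and 0 of 10 also had a log2 difference over 1, where 10.9% of all genes had both. Higher in polysome RNA were Ppargc1b by 0.98 (SE 0.23, limma adjusted p = 0.0218), Nrf1 by 0.80 (SE 0.19, limma adjusted p = 0.0212) and Ppargc1a by 0.58 (SE 0.16, limma adjusted p = 0.0373). Tfam was lower in polysome RNA by 0.60 on the log2 scale (SE 0.16, limma adjusted p = 0.0318), and its probe at base 823 gave -0.73 (limma adjusted p = 0.0274). Within WT alone the loading of Ppargc1b was 1.58, 0.90 and 1.61, with a fitted difference of 1.37 (limma adjusted p = 0.0293). There 15.4% of all genes passed both limits. In Het the loading of Ppargc1b was 0.77, 1.28 and -0.24, with a fitted difference of 0.60 (limma adjusted p = 0.262). Its difference between genotypes did not pass. Tfam in WT gave -0.93 (limma adjusted p = 0.029), and -1.31 at base 823 (limma adjusted p = 0.0189). In Het these were -0.26 and -0.15. At the probe that stands for Nrf1, ratios were above 0 in all 6 mice, at 0.32 to 1.46. Its probes at bases 1101 and 1818 were well above background on 1 and 0 of 16 arrays and were not tested. These ratios compare RNA on arrays scaled alike, so they are relative to the other messages of each RNA kind and not amounts per cell.

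**Figure D4:**
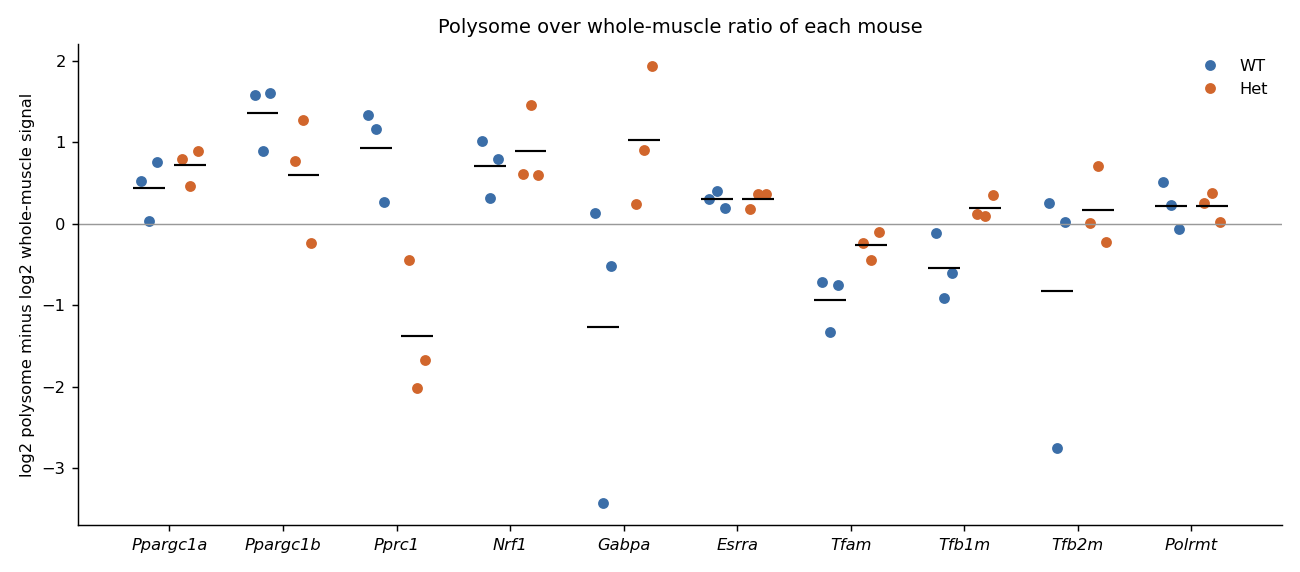
Polysome minus whole-muscle log2 ratio of each regulator (vertical axis) in each of the 6 mice, by genotype (horizontal axis), with a line at the group mean. Pprc1 ratios are above 0 in WT and below 0 in Het, Gabpa and Tfb1m ratios are higher in Het, and Tfam ratios are below 0 in all mice.

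In monosome RNA, with 2 mice a genotype, 3 of the 10 members passed this threshold, all higher in Het, where 28.3% of 15899 genes passed. Ppargc1a read 8.02 and 3.91 in WT and 7.91 and 7.92 in Het. Tfam read 6.87 and 1.71 in WT and 7.59 and 7.10 in Het. Tfb2m read 7.84 and 2.22 in WT and 8.31 and 8.05 in Het. In each the second WT value, from WT monosome 2, was not well above background, and the first was far nearer to the Het values. The differences were 1.94, 3.06 and 3.15 (limma adjusted p = 0.139, 0.102 and 0.124). Without that mouse they were -0.11, 0.48 and 0.34, and 0 members passed. An exact permutation test of 2 against 2 cannot go below 0.333.

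Pprc1, which was higher in Het whole muscle, read 5.32 and 6.10 in WT monosome RNA and 5.6 and 4.83 in Het, which overlapped. Between polysome and monosome RNA, Polrmt was higher in polysome RNA by 0.84 (SE 0.21, limma adjusted p = 0.0118) and Nrf1 by 0.75 (SE 0.24, limma adjusted p = 0.0341). Neither reached a log2 difference of 1, and 0 of 10 members passed both limits, which 17.2% of all genes did. That fit leaves out which mouse an array came from. With the ratio within each of the 4 mice that gave both kinds, Polrmt was higher by 0.83 (limma adjusted p = 0.0923) and Nrf1 by 0.70 (limma adjusted p = 0.122), and 0 of 15899 genes had an adjusted p under 0.05. Without WT mouse 2 the Polrmt difference was 1.09 (limma adjusted p = 0.000927), which passed both.

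The genes around the 10 regulators were taken from 4 lists, and none of their genes had a limma adjusted p under 0.05 between genotypes in whole muscle, polysome RNA or loading. Of 26 tested partners and upstream regulators of the coactivators, 1 rose in whole muscle and 1 fell in polysome RNA at this threshold, beside 5.05% and 5.47% of all genes, and both were Camk4, a calcium-dependent kinase. In loading 2 of the 26 fell and 0 rose, beside 13.6% of all genes called in either direction. Camk4 read 4.25, 5.79 and 5.98 in WT whole muscle and 5.96, 6.98 and 7.45 in Het, and 6.89, 8.14 and 6.80 in WT polysome RNA and 6.33, 5.18 and 5.73 in Het. Its differences were 1.46 and -1.53, and its loading fell by 2.99 on the log2 scale. Without WT mouse 2 the polysome difference was -1.10 and did not pass, and with a brightness term the 3 differences were -0.27, -0.73 and -0.60 and none passed. Rxra, a nuclear receptor partner, also fell in loading, by 1.45 on the log2 scale, but the difference was -1.0 without WT mouse 2 and -0.97 with a brightness term, and passed in neither. Over the 26 genes, 1 rose and 1 fell in whole muscle without that mouse, as did 1 and 1 in loading, beside 9.66% and 13.4% of all genes.

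Of 21 tested genes that copy, express and process mitochondrial DNA and its RNA, 0 passed in whole muscle and 1 rose in polysome RNA, beside 5.05% and 5.47% of all genes. That gene was Trmt10c, a subunit of mitochondrial RNase P, higher by 1.49. Trmt10c read 3.82, 3.25 and 3.85 in WT polysome RNA, with 1 of the 3 well above background, and 5.27, 5.15 and 4.96 in Het. In loading 2 of the 21 were called higher, beside 13.6% of all genes, Trmt10c at 1.99, with 2 of its 3 Het whole-muscle readings also at background, and the RNA helicase gene Supv3l1 at 1.19, and with a brightness term neither passed. Without WT mouse 2 the counts were 3 in polysome RNA and 3 in loading, beside 4.2% and 13.4% of all genes. The estimates of all 21 were above 0 in polysome RNA, as were those of 52.2% of all genes, with a median of 0.31 beside 0.04. Genes read on the same arrays are not independent, so this count carries no test. Of 16 tested nuclear genes known for NRF-1 or NRF-2 sites, 0 passed in whole muscle, polysome RNA or loading. Over both genotypes, 1 gene of each of these 3 lists was lower in polysome than in whole-muscle RNA with both an adjusted p under 0.05 and a log2 difference over 1, beside 10.9% of all genes called in either direction, Mef2c by a log2 difference of -1.13, Tefm by -1.33 and Tomm20 by -1.20.

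The transcripts of mitochondrial DNA itself, the end products of Tfam, Tfb2m and Polrmt, had 13 tested genes. In whole muscle 0 of 13 passed, in polysome RNA 10 rose, and in loading 7 rose, beside 5.05%, 5.47% and 13.6% of all genes. The medians in polysome RNA and loading were 1.72 and 1.78, beside 0.04 and 0.14 over all genes, and 0.94 and 1.09 without WT mouse 2, and with a brightness term the loading median was -0.08. ND4 read 10.38, 8.20 and 11.75 in WT polysome RNA and 12.93, 13.27 and 12.48 in Het, a difference of 2.79 without overlap, and 1.83 without WT mouse 2. CYTB and ATP6 rose by 2.22 and 1.97, and by 1.19 and 1.36 without that mouse. Without WT mouse 2 the counts were 6 and 4, beside 4.2% and 13.4% of all genes. With a slide term they were 10 and 5, beside 3.44% and 6.93%, and with a brightness term 7 and 0, beside 3.72% and 4.31%. Over both genotypes 12 of the 13 were lower in polysome than in whole-muscle RNA past both limits, beside 10.9% of all genes called in either direction. The median over the 13 was -3.08, beside 0.12 over all genes. These transcripts are translated inside mitochondria.

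Over the 12 whole-muscle and polysome arrays, the genes whose profile was most like that of Ppargc1a were Mrpl51 (Pearson r = 0.954), Sema3b (0.945) and Sdhd (0.943), out of 15583 genes. Those most like Tfam were Gm11783 (0.976), Bcap29 (0.975) and Tiparp (0.971). The 12 arrays come from 6 mice and fall into groups, so these correlations are a description and carry no test.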

How the data were processed

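RNA of gastrocnemius was hybridised by the authors to single-colour Agilent arrays and read with Feature Extraction 11.0.1.1; the deposited files hold spot intensity, of which the processed signal, already background-subtracted, was used. The deposited value table holds log2 values of the authors, with Spearman correlations of 1 to the raw median signal and column medians of 5.68 to 5.70, and served as an alternative. As in the study's methods, signals were put on the log2 scale and quantile normalized. This was done over 12 arrays for whole muscle and polysome RNA and over 16 with monosome RNA. The input differed, since the authors' values rank as the raw median signal and not as the processed signal used here. Outlier spots were left out and spots of a probe averaged. Whole-muscle and polysome levels are on the 12-array scale and monosome levels on the 16-array scale. Of all probes, 19806 of 15593 genes were tested on 12 arrays and 20244 of 15899 genes on 16. The tested probe with the highest mean stands for its gene.

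Groups were compared with limma 3.58.1 in R 4.3.3, p-values being adjusted by the Benjamini-Hochberg method over all probes tested, and loading with the ratio within each mouse. The threshold that the study gives for polysome RNA, read as an unadjusted p under 0.05 with a log2 difference over 1 in size, was applied to all comparisons between genotypes; between RNA kinds the adjusted p was used. For levels within 1 kind of RNA, 1 spread was estimated over all 12 arrays, or over 16 with monosome RNA. The SE and p-value there carry the spread of every kind of RNA, and the arrays of a mouse count as independent. In whole muscle Gabpa had an SE of 0.76, with SDs of 0.26 in WT and 0.31 in Het. Only for ratios within a mouse do the p-values measure the spread between these mice. Whole-muscle and polysome arrays with the same replicate number in their titles were taken as 1 mouse, since the design has each mouse giving both kinds. Their deviations from the group means correlated at 0.058 to 0.485. Scripts were tested on simulated data. Alternatives were the scaling, normexp background correction, the value table, filters, the mean over probes, the methods' t-test, the slide, array brightness, the replicate block and leaving out each mouse. Those for the gene lists, for polysome against monosome RNA within a mouse and for the second probes of Gabpa and Tfam were added after the data were seen. The members and gene lists were chosen with earlier results of these data known. All 10 members were named whatever their values. Of each list, genes past the threshold were named, but of the mitochondrial DNA transcripts only the 3 with the largest polysome differences. Gene names are those of the array annotation. Promoters were read from RefSeq. The number of arrays limits the precision.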

Additional observations from a re-analysis of the deposited data

Results flagged for a closer look

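For 2 of the members the Het and WT mice had different polysome over whole-muscle ratios, past an unadjusted p of 0.05 and a log2 difference of 1. For Gabpa the difference was 2.30 in log2 units, upward in Het, and for Pprc1 it was -2.30, downward in Het. The test of that difference had a limma unadjusted p of 0.0425 for Gabpa and 0.00254 for Pprc1, and an adjusted p of 0.282 and 0.11. All 3 Het mice were above the 3 WT mice for Gabpa and below them for Pprc1, and 13.6% of all genes passed the same threshold. For Gabpa 1 WT polysome reading was at background, and the call was lost in 13 of 17 alternatives, with a difference of 1.23 without WT mouse 2. For Pprc1 it was lost in 5 of 18, with a difference of -0.71 with a brightness term.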

How the results depend on the processing

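Pprc1 in whole muscle and loading, Gabpa in polysome RNA and loading and Tfam in polysome RNA kept their direction under all alternatives run for them. With 75th percentile scaling, 2 members passed in polysome RNA and 1 between polysome and monosome RNA, and Ppargc1a in whole muscle was 0.03. With normexp correction 0 passed in whole muscle, 0 in polysome RNA, 0 in loading and 1 in monosome RNA; Polrmt loading was 0.04 and Gabpa between polysome and whole muscle 0.15. With the authors' values 0 passed in each of the 3 main comparisons, Gabpa was 0.01 in whole muscle and 0.08 between polysome and whole muscle, and Polrmt loading 0.07. With a slide term 1 passed in loading, Ppargc1a and Gabpa were 0.02 and 0.07 in whole muscle, and Polrmt loading 0.07. On a slide alone most groups have 1 array, so only differences are given there. On slide 1 alone 10 of 52 differences changed direction. There whole muscle gave Tfb1m -0.46 and Polrmt -0.12, polysome RNA Nrf1 0.17 and Esrra -0.04, loading Polrmt 0.21, and monosome RNA Ppargc1a -0.12, Ppargc1b 0.47, Pprc1 0.28, Tfb1m -0.20 and Polrmt 0.35. On slide 2 alone 9 of 52 differences changed direction. There whole muscle gave Ppargc1a 0.12, Nrf1 0.23 and Gabpa 0.30, polysome RNA Ppargc1a -0.21, loading Ppargc1a -0.33, Nrf1 -0.50, Tfb1m -0.16 and Tfb2m -0.44, and polysome against whole muscle Gabpa 0.45. With a brightness term 0 passed in the 3 main comparisons and 1 between polysome and monosome RNA; whole muscle gave Ppargc1a 0.07, Nrf1 0.32, Gabpa 0.90 and Polrmt -0.03, and loading Nrf1 -0.41, Tfb2m -0.29 and Polrmt 0.25. With the mean over probes 2, 2 and 3 passed in whole muscle, polysome RNA and polysome against monosome RNA, and Gabpa was 0.36 between polysome and whole muscle. By the methods' t-test 0 passed in polysome RNA, 1 in loading and 0 in monosome RNA. With the replicate block 2 passed in polysome RNA, 1 in monosome RNA and 2 between polysome and monosome RNA, and without a replicate block 1 in loading; with the replicate block by mouse, added after the data were seen, 0 passed between polysome and monosome RNA; between genotypes the numbers only name mice, with correlations of -0.329 to 0.456. With probes above background on all arrays 1 passed in loading and 0 in monosome RNA, members dimmer than that giving no value, and with no filter 1 passed in loading. The causes were not tested.

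Leaving out 1 mouse at a time gave in whole muscle Tfb1m -0.11 to 0.26, Polrmt -0.01 to 0.18, Ppargc1a -0.10 to 0.12, Gabpa -0.27 to 0.04 and Ppargc1b -0.03 to 0.53. In polysome RNA 0 to 2 members passed and Nrf1 ranged from -0.29 to 0.11. In loading 1 to 2 passed, with Polrmt -0.15 to 0.14 and Nrf1 -0.11 to 0.33. Between polysome and whole muscle 0 to 1 passed, with Gabpa -0.47 to 0.42 and Tfb2m -0.60 to 0.15. In monosome RNA 0 to 5 passed, with Ppargc1a -0.11 to 4.0, Ppargc1b -0.49 to 0.28, Gabpa -0.29 to 2.81, Tfb1m -0.39 to 1.95 and Polrmt -0.75 to 0.27, and between polysome and monosome RNA 0 to 4 passed. Signal over background limits Gabpa most, at 13 of 16 arrays well above it.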
